A study of Homo sapiens with 12 samples.

Results

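The interferon response and antigen presentation genes followed here are 40 genes taken by their symbols, and all 40 were among the 27864 genes of the deposited count table. The cells were T47D, a luminal breast cancer cell line with estrogen receptor that carries an activating PIK3CA mutation, measured by sequencing of messenger RNA. The 4 groups were CTRL cells in DMSO (3 libraries), CTRL cells in 3 µM BYL719 (3 libraries), NF1KO cells in DMSO (2 libraries) and NF1KO cells in 3 µM BYL719 (3 libraries), all collected after 48 h. NF1KO cells lack NF1, which encodes neurofibromin, a protein that switches RAS off, and BYL719 (alpelisib) inhibits the alpha isoform of PI3K. Replicate 1 of NF1KO in DMSO is not analysed here. The labels give neither the number of knockout clones nor whether replicates were separate cultures, so p-values measure the spread between these libraries, which may be technical.

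Interferons act through cell-surface receptors and JAK kinases on STAT and IRF transcription factors. The factor ISGF3, which contains STAT2 and IRF9, binds the interferon-stimulated response element (ISRE) of its target genes, and STAT dimers bind the gamma-activated site (GAS). The targets include sensors and destroyers of viral RNA, proteins that block viral entry or budding, and the machinery that cuts proteins into peptides, pumps them into the endoplasmic reticulum and shows them on MHC class I at the cell surface. Many of them are also transcribed at a low level in cells that have seen no interferon, and in cancer cells they bear on recognition by T cells.

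The promoter table, from RefSeq (GRCh38.p14), gives 250 bases before to 50 after each start and held 34 of the 40 genes. The core of the ISRE, GAAA, then any 2 bases, then GAAA, was found on either strand in 24 of these 34 (70.6%), against 4.38% of the 27305 genes with a promoter there. The letters TTCNNNGAA, the core of the GAS, were found in 12 of 34 (35.3%), against 9.38%. Matches are descriptions of the letters and were not tested as binding sites. The stretches below were chosen for their letters or for changes described later. ISG15, a ubiquitin-like protein, is shown for its overlapping pair of cores, although its calls were lost when single libraries were left out. PARP14 and TAP2 have the same core letters in genes that BYL719 moved in opposite directions. OAS3 is the member whose BYL719 effect differed between the lines, and STAT2 a promoter with no ISRE core in the window. Each stretch is the 120 bases before the start, 5′ to 3′ on the gene's own strand, with the ISRE core in capitals.
ISG15 (chr1:1013377-1013496, plus strand): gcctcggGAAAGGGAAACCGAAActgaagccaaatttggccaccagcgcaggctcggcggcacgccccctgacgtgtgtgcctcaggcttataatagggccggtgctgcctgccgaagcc
PARP14 (chr3:122680719-122680838, plus strand): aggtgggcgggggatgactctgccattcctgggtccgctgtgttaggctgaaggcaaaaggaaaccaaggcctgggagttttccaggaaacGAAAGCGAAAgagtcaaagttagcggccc
TAP2 (chr6:32838740-32838859, minus strand): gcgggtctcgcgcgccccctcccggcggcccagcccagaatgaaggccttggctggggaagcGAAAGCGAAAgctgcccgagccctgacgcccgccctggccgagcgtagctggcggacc
OAS3 (chr12:112938354-112938473, plus strand): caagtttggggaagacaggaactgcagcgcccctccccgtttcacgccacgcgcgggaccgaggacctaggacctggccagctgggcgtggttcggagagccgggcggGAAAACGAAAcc
STAT2 (chr12:56360108-56360227, minus strand): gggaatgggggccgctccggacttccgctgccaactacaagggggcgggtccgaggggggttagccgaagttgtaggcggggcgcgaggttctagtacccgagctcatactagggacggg
A further ISRE core of OAS3 starts 143 bases before its start and lies outside the stretch printed. DTX3L and PARP9 are transcribed away from each other, and the window of each holds the same core at chr3:122564332-122564341, shown in capitals in the 30 bases around it.
DTX3L and PARP9 (chr3:122564322-122564351, plus strand): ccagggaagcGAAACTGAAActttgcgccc

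The 11 libraries held 53283945 to 60148876 counts each, of which 20 ribosomal RNA genes took 8.45% to 12.3%. NF1 lay between 147 and 289 CPM (counts scaled to library size with TMM factors) in the CTRL libraries and between 0.400 and 0.891 CPM in the NF1KO libraries. All 9 luminal breast markers were expressed, with a summed level of 9926 to 13997 CPM, and 11 immune cell markers summed to 1.92 to 3.90 CPM. The 8 fibroblast and endothelial markers summed to 17.5 to 55.8 CPM, and 4 basal markers to 0.241 to 1.67 CPM. Of the 9 luminal markers, ESR1, PGR and FOXA1 were lower in NF1KO in DMSO, at log2 differences of -0.83, -0.61 and -0.39, and 0 were called higher. Of all tested genes, 20.3% differed there. CTRL BYL719 replicate 2 stood apart in the 40 genes. It was the highest of its 3 libraries in 29 of the 37 members with enough counts to be tested (78.4%), against 32.3% of all 16081 tested genes. It exceeded the next library by more than 1.5 times in 10 of the 37 (27.0%), against 1.23% of all tested genes. The 10 were IFIT1, OAS1, IFI27, ISG15, MX1, IFITM3, OAS2, IFI6, IRF9 and IFITM1, with ratios from 1.69 for IFITM1 to 4.37 for IFIT1. Among 33 further tested interferon-stimulated genes, it was the highest in 17 (51.5%) and more than 1.5 times higher than the next in 2 (6.06%). It stood apart less clearly in these. CTRL BYL719 replicate 1 was also more than 1.5 times higher in 2, and NF1KO BYL719 replicate 2 was the highest of its group in 18 (54.5%). The summed immune markers were 3.01 to 3.90 CPM in the CTRL BYL719 libraries, with CD2 at 0 in all 11 libraries. Their part in the values of CTRL BYL719 replicate 2 was not tested. The member counts, and the member calls that turned on this library, are therefore given with and without it.

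**Figure D1:**
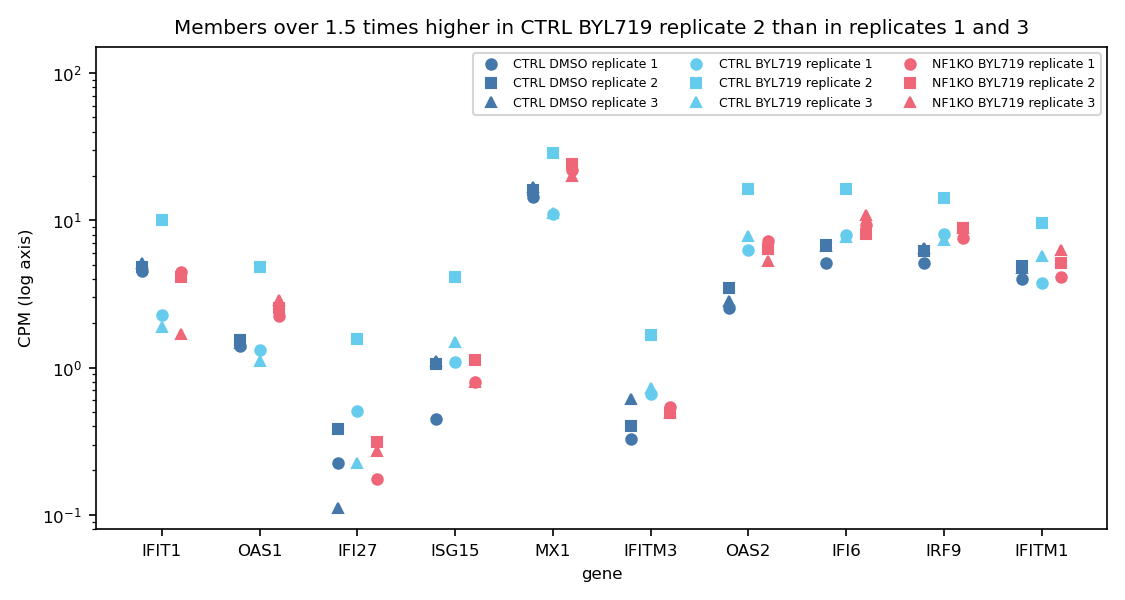
Level in CPM (log axis) of the 10 members that were more than 1.5 times higher in CTRL BYL719 replicate 2 than in replicates 1 and 3. Dark blue points are CTRL DMSO, light blue CTRL BYL719 and pink NF1KO BYL719 libraries, and the shape gives the replicate. The light blue square lies above every other point of the gene in all 10.

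Per kilobase of exon (union of GENCODE v29 exons), the most abundant members in CTRL DMSO were HLA-B, a classical MHC class I heavy chain, at 187 ± 17.1 CPM per kb (SD, n = 3), and BST2 (tetherin), which holds budding virus at the cell surface, at 113 ± 10.9. HLA-C followed at 92.7 ± 12.1 and B2M, the light chain of MHC class I, at 87.3 ± 9.08, which overlap within their SD, and the non-classical chain HLA-E stood at 41.1 ± 4.24. The transcription factor STAT2 reached 15.7 ± 0.226 CPM per kb. CD274 (PD-L1), the ligand that restrains T cells, was near the bottom at 0.138 ± 0.0256. IRF7, the factor that drives interferon production, had 2 counts over all 11 libraries, IFI44 had 49 and XAF1 had 52, and these 3 were not tested. Of 10 interferon genes, 7 had no count and the other 3 had 4 counts in all, where 3 counts correspond to 0.0508 to 0.0558 CPM in a library, a limit from counting error only.

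BYL719 in CTRL cells raised 15 of the 37 tested members and lowered 2, at an adjusted p under 0.05. Over all tested genes, 44.4% changed, 22.6% rising and 21.8% falling. The members' median log2 fold change was 0.26 and that of all tested genes 0.00. In NF1KO cells BYL719 raised 6 and lowered 1, where 18.7% of all tested genes changed, 10.3% rising and 8.47% falling, with medians of 0.24 and 0.01. In this bulk RNA, fewer cells expressing a gene and less RNA per cell cannot be told apart. All 6 members that rose in NF1KO were among the 15 that rose in CTRL, and the 1 that fell was among the 2. These comparisons share no libraries but come from the same fit, with a shared estimate of the spread. The overlap of calls over all tested genes was not counted. The NF1KO comparison rests on 2 DMSO libraries. Without CTRL BYL719 replicate 2, 7 members rose and 5 fell in CTRL, and 11 rose in NF1KO, from the same 5 NF1KO libraries. Of all 16018 genes tested without that library, 3106 rose and 3064 fell in CTRL, and 1561 rose in NF1KO. The 8 CTRL calls lost without it were those of ISG15, ISG20, IFIT2, IFIT3, IFITM3, IFI6, HLA-E and PSMB8, and the same 8 were lost without CTRL DMSO replicate 1. Those of ISG15, IFIT2, IFIT3 and IFITM3 were also lost without CTRL DMSO replicate 2, that of HLA-E without CTRL BYL719 replicate 3, that of ISG20 in 6 of the 11 single-library omissions and that of PSMB8 in 9. In NF1KO, leaving out NF1KO DMSO replicate 3 kept only the rise of DTX3L, and leaving out NF1KO DMSO replicate 2 kept those of PARP14, DTX3L and IFITM2.

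Libraries of equal replicate number correlated most in CTRL, clearly for number 1 and less so for numbers 2 and 3. With the number as a block, 17 members rose and 3 fell in CTRL. Of all 16081 tested genes, 4295 rose and 4236 fell there with the block, against 3628 and 3504 without it. The block added rises of the RNA sensor IFIH1 at 0.23 (adjusted p = 0.0149) and IFI27 at 1.56 (adjusted p = 0.00597) and a fall of BST2 at -0.22 (adjusted p = 0.0253). IFI27 is high in CTRL BYL719 replicate 2, and without that library and without the block it had 0.61 (adjusted p = 0.485). All 17 members called without the block were also called with it. By promoter letters, 8 of the 23 tested members with an ISRE core rose and 2 fell in CTRL (median 0.23), and 3 of the 9 tested members with a promoter and no core rose (median 0.11). In NF1KO 2 rose and 1 fell of the 23, and 2 rose of the 9.

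**Figure D2:**
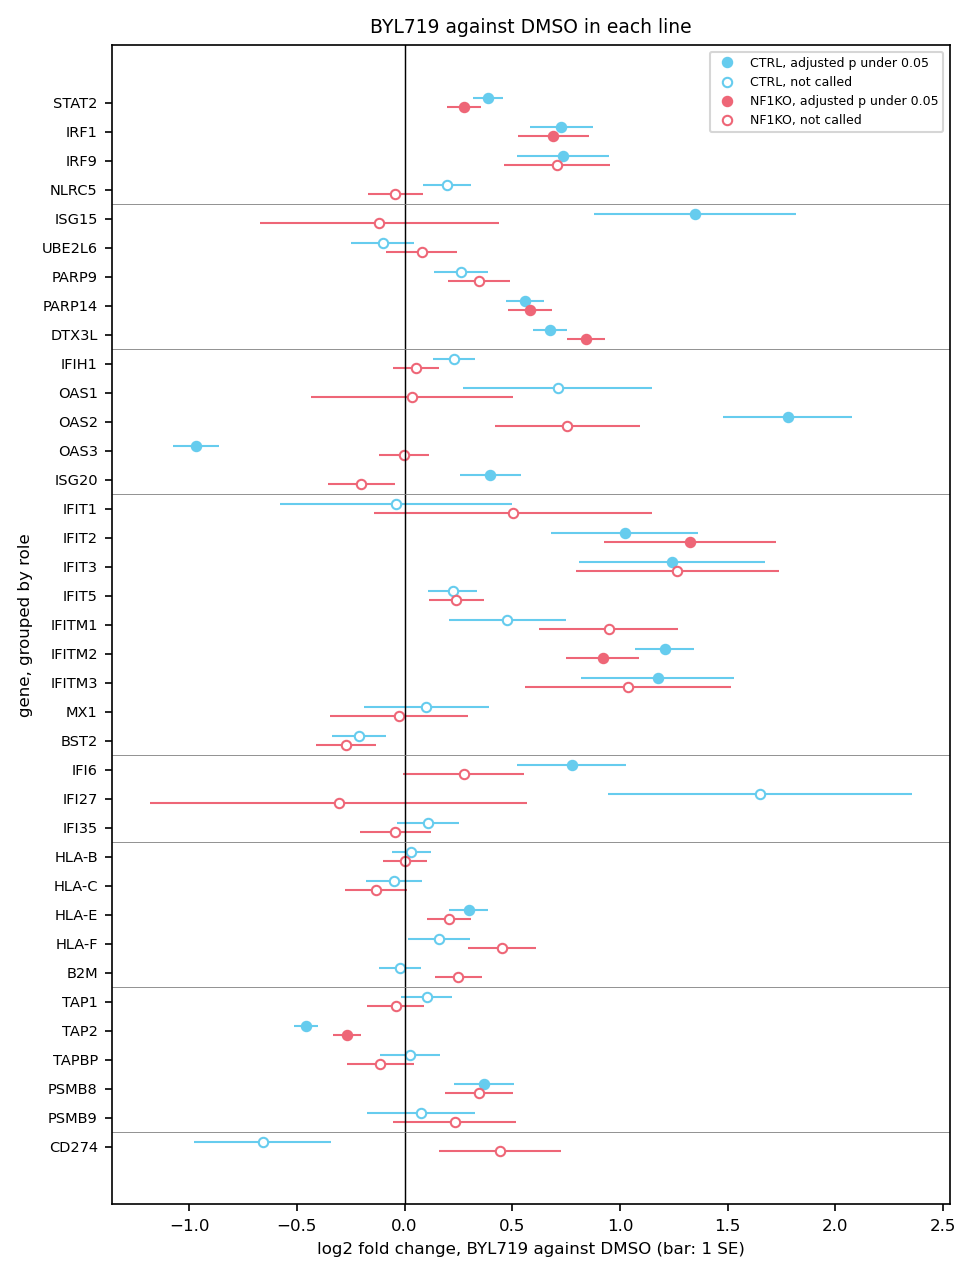
Log2 fold change of BYL719 against DMSO (points, with 1 SE as bars) for the 37 tested members, in CTRL (light blue) and NF1KO (pink). Filled points have an adjusted p under 0.05. OAS3 lies at -0.97 in CTRL and at 0.00 in NF1KO, while STAT2, IRF1, PARP14, DTX3L, IFIT2 and IFITM2 rose in both.

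Among the transcription factors, BYL719 raised STAT2, IRF1 and IRF9 in CTRL and STAT2 and IRF1 in NF1KO. STAT2 (chr12:56341597-56360107) stood at 53.1, 54.1 and 52.6 CPM in the CTRL DMSO libraries and at 69.5, 68.8 and 70.3 CPM in CTRL BYL719. It stood at 40.2 and 38.1 CPM in NF1KO DMSO and at 42.5, 51.2 and 48.6 CPM in NF1KO BYL719. Every BYL719 library lay above every DMSO library of its line, and the highest NF1KO library lay below the lowest CTRL library. The log2 fold change was 0.39 ± 0.07 (adjusted p = 8.14e-04) in CTRL and 0.28 ± 0.08 (adjusted p = 0.0306) in NF1KO. The NF1KO call was lost without any one of NF1KO DMSO replicates 2 and 3 or NF1KO BYL719 replicates 2 and 3. IRF1, the factor of the GAS-driven arm that switches on MHC class I genes, was at 1.86, 1.97 and 1.54 CPM in CTRL DMSO, 2.98, 3.31 and 2.61 in CTRL BYL719, 1.83 and 2.10 in NF1KO DMSO and 3.42, 3.25 and 2.84 in NF1KO BYL719. The DMSO and BYL719 libraries did not overlap in either line. Its change was 0.73 ± 0.15 (adjusted p = 0.00168) in CTRL and 0.69 ± 0.16 (adjusted p = 0.0135) in NF1KO, and the NF1KO call was lost without either NF1KO DMSO library. IRF9, the DNA-binding part of ISGF3, rose by 0.74 ± 0.21 (adjusted p = 0.0148) in CTRL and by 0.38 (adjusted p = 0.0457) without CTRL BYL719 replicate 2. In NF1KO its value was 0.71 ± 0.25 (adjusted p = 0.0657). NLRC5, the transactivator of MHC class I genes, had 0.20 ± 0.11 (adjusted p = 0.181) in CTRL and -0.04 ± 0.13 (adjusted p = 0.857) in NF1KO.

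In the group of ISG15 and the PARP9 complex, DTX3L and PARP14 rose in both lines. DTX3L (chr3:122564338-122575203), a ubiquitin ligase that works as a pair with PARP9, was at 16.7, 17.6 and 16.4 CPM in CTRL DMSO and 26.7, 28.96 and 25.2 in CTRL BYL719, and at 13.5 and 13.0 in NF1KO DMSO and 25.0, 24.5 and 21.8 in NF1KO BYL719. PARP14 (chr3:122680839-122730840), a mono-ADP-ribosyltransferase, was at 20.4, 17.2 and 18.8 CPM in CTRL DMSO and 27.6, 28.9 and 26.6 in CTRL BYL719, and at 13.5 and 12.7 in NF1KO DMSO and 20.1, 21.2 and 17.6 in NF1KO BYL719. Neither gene's DMSO and BYL719 libraries overlapped within a line. DTX3L changed by 0.68 ± 0.08 (adjusted p = 2.71e-05) in CTRL and 0.84 ± 0.09 (adjusted p = 1.46e-04) in NF1KO. PARP14 changed by 0.56 ± 0.09 (adjusted p = 2.80e-04) and 0.58 ± 0.10 (adjusted p = 0.00252), and the NF1KO call was lost without NF1KO DMSO replicate 3 (adjusted p = 0.0511). PARP9, which shares the promoter core shown above with DTX3L, had 0.26 ± 0.13 (adjusted p = 0.114) in CTRL and 0.35 ± 0.14 (adjusted p = 0.117) in NF1KO. PARP9 and DTX3L overlap in their annotated positions, and reads from the overlap could be split between them if counting ignored strand. ISG15 was at 0.447, 1.06 and 1.11 CPM in CTRL DMSO and 1.08, 4.11 and 1.48 in CTRL BYL719. Only replicate 2 of the latter lay well above the DMSO range, and the call at 1.35 ± 0.47 (adjusted p = 0.0347) was not kept without it, at 0.56 (adjusted p = 0.236). UBE2L6, the enzyme that passes ISG15 to its targets, had -0.10 ± 0.15 (adjusted p = 0.607) in CTRL and 0.08 ± 0.16 (adjusted p = 0.783) in NF1KO.

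The 3 oligoadenylate synthetases, which sense double-stranded RNA and switch on RNase L, did not move together in CTRL cells. OAS3 (chr12:112938474-112973251), the longest of them, was at 80.0, 75.5 and 79.7 CPM in CTRL DMSO and 42.2, 45.9 and 32.2 in CTRL BYL719. In NF1KO it was at 82.8 and 81.1 CPM in DMSO and 80.0, 86.4 and 79.0 in BYL719. All 3 CTRL BYL719 libraries were low, and the NF1KO libraries overlapped between treatments. The change was -0.97 ± 0.11 (adjusted p = 1.75e-05) in CTRL and 0.00 ± 0.12 (adjusted p = 0.990) in NF1KO. OAS2, encoded beside OAS3 on chromosome 12, went the other way in CTRL. It was at 2.53, 3.46 and 2.82 CPM in CTRL DMSO, 6.33, 16.2 and 7.77 in CTRL BYL719, 3.95 and 3.51 in NF1KO DMSO and 7.27, 6.37 and 5.27 in NF1KO BYL719. Within each line the BYL719 libraries lay above the DMSO libraries without overlap. Its change was 1.78 ± 0.30 (adjusted p = 4.60e-04) in CTRL, 1.26 (adjusted p = 2.03e-04) there without CTRL BYL719 replicate 2, and 0.76 ± 0.33 (adjusted p = 0.137) in NF1KO. OAS1 was at 1.39, 1.53 and 1.47 CPM in CTRL DMSO and 1.32, 4.82 and 1.10 in CTRL BYL719, with 0.71 ± 0.44 (adjusted p = 0.211), and replicate 2 alone lay above the DMSO libraries. Without that library OAS1 had -0.27 (adjusted p = 0.277), the opposite sign. ISG20, an exonuclease that degrades viral RNA, rose in CTRL by 0.40 ± 0.14 (adjusted p = 0.0378), a call not kept without CTRL BYL719 replicate 2 at 0.36 (adjusted p = 0.104), and had -0.20 ± 0.16 (adjusted p = 0.404) in NF1KO.

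**Figure D3:**
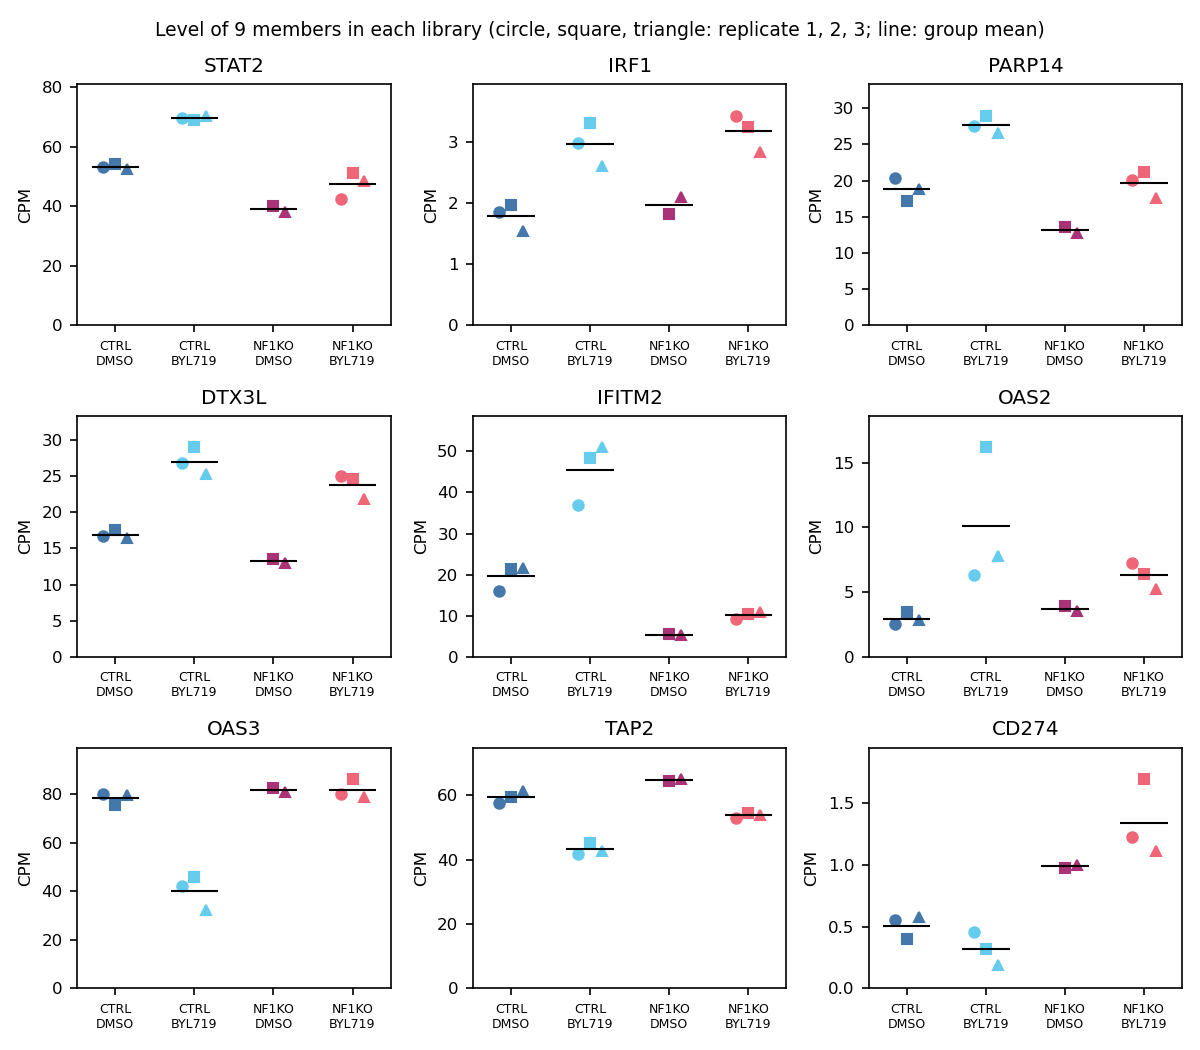
Level in CPM of 9 members in each of the 11 libraries, by group, with the replicate as the shape and the group mean as a line. Each panel has its own axis from 0. STAT2, IRF1, PARP14, DTX3L and IFITM2 are higher in BYL719 in both lines, OAS3 is low only in the 3 CTRL BYL719 libraries, and CD274 is highest in the NF1KO libraries.

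Of the 9 antiviral effectors, IFIT2, IFIT3, IFITM2 and IFITM3 rose in CTRL and IFIT2 and IFITM2 in NF1KO. The IFITM proteins stop enveloped viruses from fusing with endosomes. IFITM2 (chr11:307816-309395) was at 16.03, 21.5 and 21.5 CPM in CTRL DMSO, 36.9, 48.5 and 50.9 in CTRL BYL719, 5.48 and 5.22 in NF1KO DMSO and 9.10, 10.3 and 10.9 in NF1KO BYL719. BYL719 libraries lay above DMSO libraries in both lines, and every NF1KO library lay below every CTRL library. The change was 1.21 ± 0.14 (adjusted p = 2.37e-05) in CTRL and 0.92 ± 0.17 (adjusted p = 0.00355) in NF1KO, the latter with an adjusted p of 0.0508 without NF1KO DMSO replicate 3. IFITM3 rose by 1.17 ± 0.36 (adjusted p = 0.0182) in CTRL, from a mean of 0.447 ± 0.148 CPM (SD, n = 3) to 1.01 ± 0.557 CPM (SD, n = 3), and had 0.64 (adjusted p = 0.0856) without CTRL BYL719 replicate 2. IFITM1, IFITM2 and IFITM3 are related genes, and how any reads common to them were counted is not given in the sources used here. The IFIT proteins bind viral RNA and each other. IFIT2 changed by 1.02 ± 0.34 (adjusted p = 0.0292) in CTRL and 1.33 ± 0.40 (adjusted p = 0.0378) in NF1KO, and IFIT3 by 1.24 ± 0.43 (adjusted p = 0.0346) and 1.27 ± 0.47 (adjusted p = 0.0815), at means of at most 1.77 CPM. In CTRL neither call was kept without CTRL BYL719 replicate 2, at 0.86 (adjusted p = 0.0970) and 1.00 (adjusted p = 0.120). The IFIT2 call in NF1KO was lost in 4 of the 5 omissions of an NF1KO library, all but that of NF1KO BYL719 replicate 3. IFIT1, IFIT2, IFIT3 and IFIT5 overlap the annotated span of LIPA, whose counts were 1136% to 9619% of theirs. LIPA changed by -0.30 (adjusted p = 0.00350) with BYL719 in CTRL and by -0.16 (adjusted p = 0.156) in NF1KO, and its part in the IFIT values was not tested.

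For MX1, a GTPase that traps viral nucleocapsids, and IFIT1, which binds foreign RNA caps, the value in CTRL turned on 1 library. MX1 was at 14.4, 16.1 and 16.7 CPM in CTRL DMSO and 11.0, 28.6 and 11.1 in CTRL BYL719. Replicates 1 and 3 of BYL719 lay below all DMSO libraries and replicate 2 above all of them. The change was 0.10 ± 0.29 (adjusted p = 0.806) with all libraries and -0.51 (adjusted p = 0.00471) without replicate 2. IFIT1 was at 4.53, 4.83 and 5.12 CPM in CTRL DMSO and 2.28, 9.99 and 1.90 in CTRL BYL719, with -0.04 ± 0.54 (adjusted p = 0.960) and, without replicate 2, -1.20 (adjusted p = 0.0256). BST2 had -0.21 ± 0.13 (adjusted p = 0.190) with all libraries and -0.34 (adjusted p = 0.0437) without that library. In NF1KO, MX1 had -0.02 ± 0.32 (adjusted p = 0.971) and IFIT1 0.50 ± 0.65 (adjusted p = 0.642). IFI6, a mitochondrial protein that delays cell death, rose by 0.78 ± 0.25 (adjusted p = 0.0249) in CTRL, with 0.33 (adjusted p = 0.102) without replicate 2. IFI27 and IFI35 had 1.65 and 0.11 in CTRL, with adjusted p-values of 0.0772 and 0.581, and IFI27 had 0.61 without replicate 2.

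Of the 5 MHC class I chains, BYL719 raised HLA-E in CTRL. It rose by 0.30 ± 0.09 (adjusted p = 0.0190) in CTRL, from 94.4, 115 and 112 to 115, 139 and 141 CPM, with an overlap of the groups and 0.26 (adjusted p = 0.0686) without CTRL BYL719 replicate 2. HLA-B, HLA-C, HLA-F and B2M had 0.03, -0.05, 0.16 and -0.02 in CTRL, none of them called. In NF1KO the 5 chains lay between -0.13 for HLA-C and 0.45 for HLA-F, with the smallest adjusted p at 0.0681. Near-identical HLA genes can share reads, so the split between them is uncertain. TAP2 (chr6:32821831-32838739), a subunit of the pump that carries peptides into the endoplasmic reticulum, fell in both lines. It was at 57.7, 59.4 and 61.2 CPM in CTRL DMSO and 41.9, 45.3 and 42.6 in CTRL BYL719, and at 64.4 and 65.1 in NF1KO DMSO and 52.99, 54.5 and 53.9 in NF1KO BYL719. The BYL719 libraries lay below the DMSO libraries of their line without overlap. TAP2 changed by -0.46 ± 0.06 (adjusted p = 4.72e-05) in CTRL and -0.27 ± 0.06 (adjusted p = 0.0124) in NF1KO, the latter lost without either NF1KO DMSO library. Its partner TAP1 had 0.10 ± 0.12 (adjusted p = 0.513) and -0.04 ± 0.13 (adjusted p = 0.871). PSMB8, a catalytic subunit of the immunoproteasome, rose by 0.37 ± 0.14 (adjusted p = 0.0487) in CTRL, not kept without CTRL BYL719 replicate 2 at 0.22 (adjusted p = 0.216), and PSMB9 of the same particle had 0.08 ± 0.25 (adjusted p = 0.829). TAPBP (tapasin), which loads peptides, had 0.02 ± 0.14 (adjusted p = 0.905).

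NF1KO differed from CTRL in DMSO in 6 members, of which 2 were higher and 4 lower. Over all tested genes, 20.3% differed, 9.99% being higher and 10.3% lower. The median log2 difference was -0.03 for the members and -0.01 for all tested genes. In BYL719, 5 members were higher and 8 lower in NF1KO, where 39.8% of all tested genes differed, 20.8% being higher and 19.0% lower, with medians of -0.18 and 0.00. STAT2, PARP14 and IFITM2 were lower in both treatments (3 of the 4 lower in DMSO and of the 8 lower in BYL719), and CD274 was higher in both (1 of 2 and 1 of 5). Here too, the overlap over all tested genes was not counted. Without CTRL BYL719 replicate 2, 3 were higher and 6 lower in DMSO, and 7 higher and 3 lower in BYL719. Of all 16018 genes tested without that library, 1510 were higher and 1570 lower in DMSO, and 3001 higher and 2698 lower in BYL719. The DMSO comparison does not contain that library, but its spread is estimated in the fit of all groups.

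**Figure D4:**
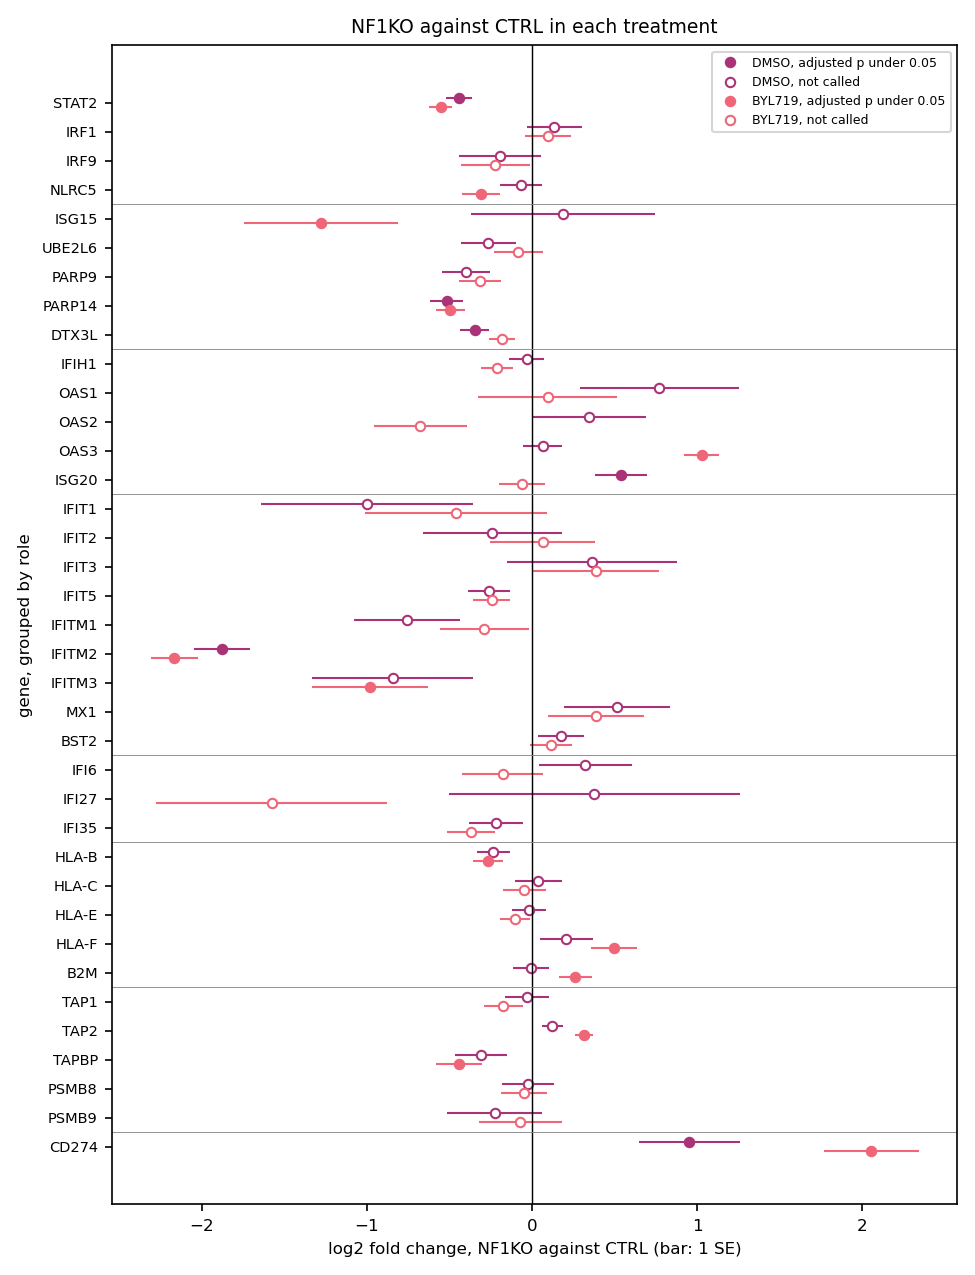
Log2 difference of NF1KO against CTRL (points, with 1 SE as bars) for the 37 tested members in DMSO (purple) and BYL719 (pink). Filled points have an adjusted p under 0.05. IFITM2 lies lowest among the called members in both treatments, at -1.88 and -2.17, and CD274 highest, at 0.95 and 2.05.

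IFITM2 showed the largest difference of the called members between the lines, at -1.88 ± 0.17 (adjusted p = 9.04e-06) in DMSO and -2.17 ± 0.14 (adjusted p = 2.06e-07) in BYL719. In DMSO the mean of CTRL was 19.7 ± 3.17 CPM (SD, n = 3), while NF1KO had a mean of 5.35 ± 0.188 CPM (SD, n = 2). Its neighbour IFITM3 had -0.84 ± 0.49 (adjusted p = 0.245) in DMSO and -0.98 ± 0.35 (adjusted p = 0.0418) in BYL719, the latter not kept without CTRL BYL719 replicate 2 at -0.44 (adjusted p = 0.220). IFITM1 had -0.76 ± 0.32 (adjusted p = 0.120) in DMSO, and -0.76 (adjusted p = 0.0315) without that library. STAT2 was lower in NF1KO, at -0.44 ± 0.08 (adjusted p = 0.00187) in DMSO and -0.55 ± 0.07 (adjusted p = 5.41e-05) in BYL719. These IFITM2 and STAT2 calls were kept without each of the 11 libraries in turn. PARP14 was lower, at -0.52 ± 0.10 (adjusted p = 0.00329) in DMSO, where leaving out NF1KO DMSO replicate 3 gave an adjusted p of 0.0556, and at -0.50 ± 0.09 (adjusted p = 6.77e-04) in BYL719. DTX3L was lower in DMSO, at -0.35 ± 0.09 (adjusted p = 0.0166), a call lost without CTRL DMSO replicate 2 or either NF1KO DMSO library, and had -0.18 ± 0.08 (adjusted p = 0.0807) in BYL719. PARP9 had -0.40 ± 0.14 (adjusted p = 0.0715) and -0.31 ± 0.13 (adjusted p = 0.0668). NLRC5 and ISG15 were lower in BYL719, at -0.31 ± 0.11 (adjusted p = 0.0480) and -1.28 ± 0.47 (adjusted p = 0.0463), and neither was kept without CTRL BYL719 replicate 2, at -0.33 (adjusted p = 0.0719) and -0.49 (adjusted p = 0.302). The NLRC5 call was lost in 9 of the 11 omissions, the ISG15 call in 8 and the IFITM3 call in 7.

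CD274 (chr9:5450542-5470554) was higher in NF1KO. It was at 0.550, 0.401 and 0.575 CPM in CTRL DMSO, 0.457, 0.316 and 0.190 in CTRL BYL719, 0.978 and 0.996 in NF1KO DMSO and 1.22, 1.697 and 1.11 in NF1KO BYL719. Every NF1KO library lay above every CTRL library. The difference was 0.95 ± 0.30 (adjusted p = 0.0452) in DMSO, lost in 7 of the 11 single-library omissions, and 2.05 ± 0.29 (adjusted p = 1.12e-04) in BYL719, a 4.15-fold higher level that was kept in all 11. OAS3 had 0.06 ± 0.12 (adjusted p = 0.733) in DMSO and 1.03 ± 0.11 (adjusted p = 8.80e-06) in BYL719, and the groups did not overlap in BYL719. ISG20 was higher in DMSO by 0.54 ± 0.16 (adjusted p = 0.0304), from 3.73, 4.85 and 4.71 CPM in CTRL to 6.66 and 6.20 in NF1KO, lost without CTRL DMSO replicate 1 or either NF1KO DMSO library, and had -0.06 ± 0.14 (adjusted p = 0.757) in BYL719. MX1 and OAS1 had 0.51 and 0.77 in DMSO and 0.39 and 0.09 in BYL719, none called. Without CTRL BYL719 replicate 2 they were 0.51 (adjusted p = 0.00721) and 0.77 (adjusted p = 0.00916) in DMSO and 1.00 (adjusted p = 5.11e-05) and 1.08 (adjusted p = 7.55e-04) in BYL719. That library is not in the DMSO comparison, whose values stayed at 0.51 and 0.77, and enters it only through the shared fit.

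Of the 10 MHC class I chain, peptide supply and loading genes tested, TAP2, HLA-F and B2M were higher and HLA-B and TAPBP lower in NF1KO under BYL719. TAP2 was higher in NF1KO by 0.31 ± 0.06 (adjusted p = 8.03e-04) and was kept in all 11 omissions. HLA-F, a non-classical chain, was at 4.26, 5.73 and 5.21 CPM in CTRL BYL719 and 6.39, 6.77 and 8.29 in NF1KO BYL719, with no overlap and 0.50 ± 0.14 (adjusted p = 0.0139), lost without NF1KO BYL719 replicate 3. B2M was at 178, 232 and 204 CPM in CTRL BYL719 and 245, 238 and 252 in NF1KO BYL719, with 0.26 ± 0.10 (adjusted p = 0.0496). The B2M groups did not overlap, but the call sat at the threshold and was lost in 8 of the 11 omissions. HLA-B was lower, at 265, 324 and 319 CPM against 237, 252 and 267, with an overlap and -0.27 ± 0.09 (adjusted p = 0.0361). TAPBP was lower at 89.1, 118 and 118 CPM against 67.4, 88.2 and 83.0, with -0.44 ± 0.14 (adjusted p = 0.0230). Without CTRL BYL719 replicate 2 they were -0.21 (adjusted p = 0.122) for HLA-B and -0.38 (adjusted p = 0.0770) for TAPBP, and the calls were lost in 6 and 3 of the 11 omissions. TAPBP overlaps RGL2, which had 148% of its counts, in annotated position. In DMSO the smallest adjusted p among the 10 was 0.129, for HLA-B at -0.23. Between the outermost MHC members on chromosome 6 (29723434 to 33314078), 124 further genes were tested, of which 24 were higher and 18 lower in NF1KO under BYL719, with a median of 0.02.

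The effect of BYL719 itself differed between the lines in 1 member, OAS3, where 9.39% of all tested genes differed, 5.68% with a higher and 3.71% with a lower effect in NF1KO. With edgeR and with DESeq2 alike, 1 member had a higher effect and 0 had a lower one. With edgeR, 5 of the 37 had an unadjusted p under 0.05 in either direction. The difference for OAS3 was 0.96 ± 0.16 (adjusted p = 0.00214), which is the fall of -0.97 in CTRL set against 0.00 in NF1KO. It lay between 0.81 and 1.07 and stayed called in all 20 alternatives run. With a block for the replicate number within each genotype, an alternative chosen after seeing the data, the difference was higher in 5 members (OAS3, IFITM1, TAP2, B2M and CD274) and lower in 3 (ISG15, OAS2 and ISG20), where 2403 of all 16081 tested genes were higher and 1942 lower. That block uses the CTRL numbers, whose pairing was clear only for number 1, and also the NF1KO numbers, for which pairing could not be decided. In it, NF1KO BYL719 replicate 1 had no DMSO library of its number, so the NF1KO effect rested on replicates 2 and 3. The block also left fewer residual degrees of freedom than the 7 of the main fit. Without a block OAS3 alone was called. OAS2 had -1.02 ± 0.44 (adjusted p = 0.206), ISG20 -0.60 ± 0.21 (adjusted p = 0.108), ISG15 -1.47 ± 0.73 (adjusted p = 0.283) and IFI6 -0.50 ± 0.37 (adjusted p = 0.516). Without CTRL BYL719 replicate 2 the differences were -0.51 for OAS2, -0.56 for ISG20, -0.68 for ISG15 and -0.06 for IFI6. CD274, with opposite signs in the lines, had 1.10 ± 0.42 (adjusted p = 0.147). TAP2 and B2M had 0.19 ± 0.09 (adjusted p = 0.222) and 0.27 ± 0.15 (adjusted p = 0.332).

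**Figure D5:**
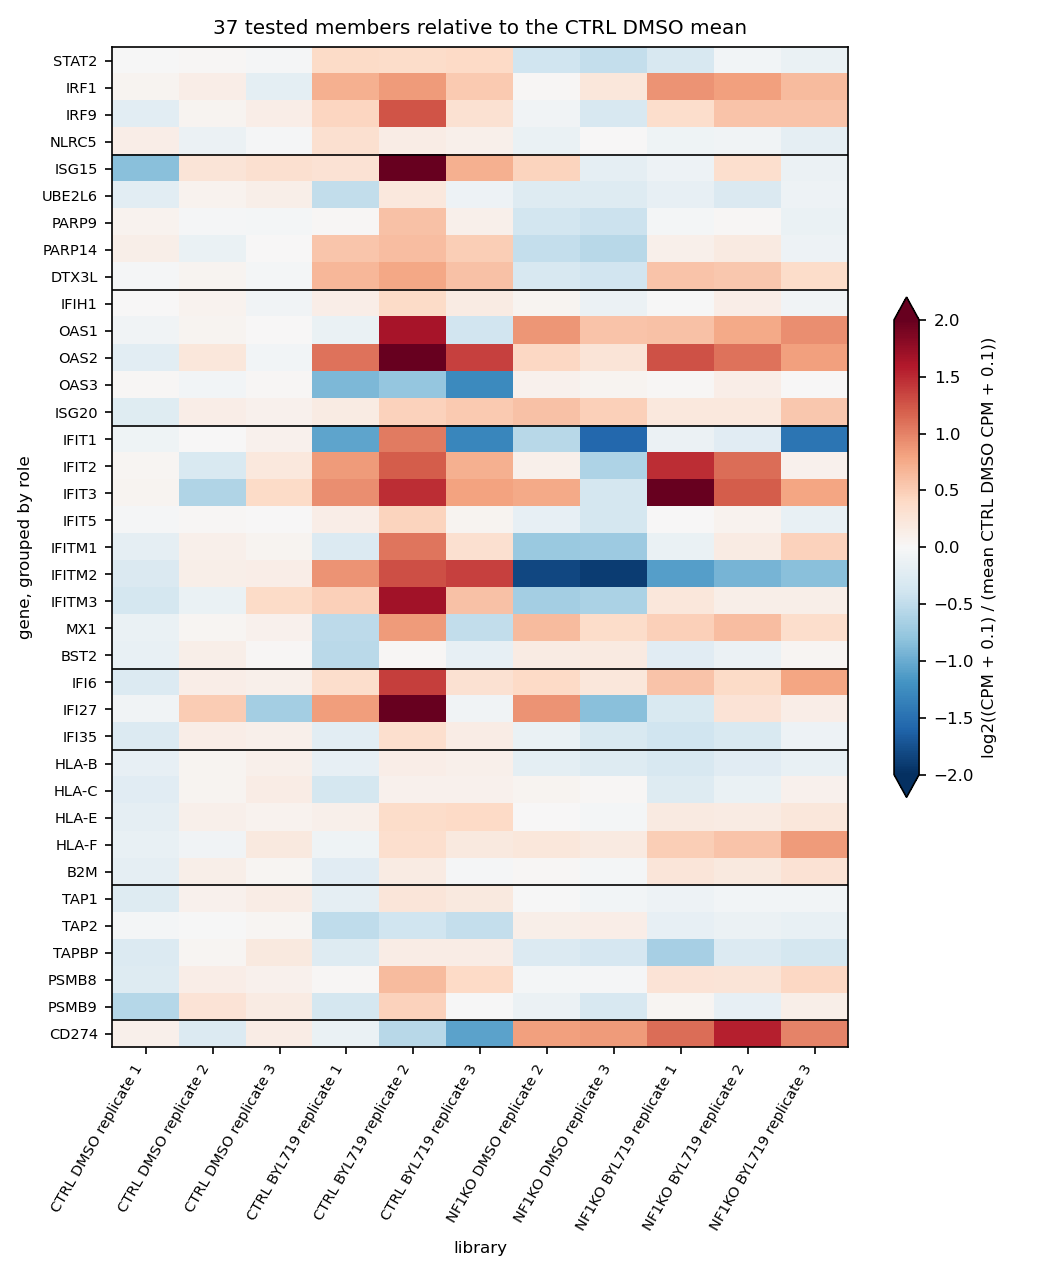
Log2 ratio of each library's CPM to the CTRL DMSO mean (0.1 CPM added to both) for the 37 tested members, in rows by role, and the 11 libraries, in columns. Colours end at -2 and 2. The column of CTRL BYL719 replicate 2 is the reddest among its group for most members, the OAS3 row is blue in the 3 CTRL BYL719 columns, and the IFITM2 row is blue in the NF1KO columns.

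Upstream of these genes, 9 interferon receptor and JAK kinase genes were tested. In NF1KO in DMSO 2 were higher and 2 lower, where 20.3% of all tested genes differed, and in BYL719 again 2 and 2, where 39.8% did. IFNLR1, a chain of the lambda interferon receptor, was lower, at -1.01 ± 0.10 (adjusted p = 1.71e-05) in DMSO and -0.70 ± 0.09 (adjusted p = 4.24e-05) in BYL719. IFNGR2, a chain of the gamma interferon receptor, was higher by 0.64 ± 0.09 (adjusted p = 3.59e-04) and 0.58 ± 0.08 (adjusted p = 1.42e-04). JAK1, a kinase shared by the interferon receptors, was lower in DMSO, at -0.71 ± 0.09 (adjusted p = 1.75e-04). BYL719 raised JAK1 in NF1KO by 0.46 ± 0.09 (adjusted p = 0.00547) and had 0.00 in CTRL, a difference of 0.46 ± 0.12 (adjusted p = 0.0341). The rise was lost without either NF1KO DMSO library. IFNAR2, a chain of the type I receptor, fell in CTRL, at -0.51 ± 0.09 (adjusted p = 4.97e-04), and its effect differed by 0.47 ± 0.13 (adjusted p = 0.0398). The differences of JAK1 and IFNAR2 were each lost in 9 of the 11 single-library omissions, that of CTRL BYL719 replicate 2 included. Of 9 tested negative regulators, USP18, which removes ISG15 and blocks the type I receptor, was higher in NF1KO in both treatments, by 0.39 ± 0.12 (adjusted p = 0.0419) and 0.52 ± 0.11 (adjusted p = 0.00259), and fell with BYL719 in CTRL, at -0.41 ± 0.11 (adjusted p = 0.0105). The USP18 call in DMSO was lost in 8 of the 11 omissions. SOCS3 rose with BYL719 in NF1KO by 0.66 ± 0.14 (adjusted p = 0.00624), a call lost without either NF1KO DMSO library.

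Of 10 tested genes of nucleic acid sensing, 2 were lower in NF1KO in DMSO and 5 in BYL719, with no higher call in either, where 20.3% and 39.8% of all tested genes differed in either direction. DDX58, which encodes the RNA sensor RIG-I, was lower, at -0.94 ± 0.11 (adjusted p = 5.69e-05) and -1.18 ± 0.09 (adjusted p = 9.27e-07), and DHX58, its relative LGP2, at -0.61 ± 0.11 (adjusted p = 0.00237) and -0.56 ± 0.10 (adjusted p = 6.30e-04). BYL719 raised 5 and lowered 2 of the 10 in CTRL and raised 3 in NF1KO, against 44.4% and 18.7% of all tested genes changed. TLR3, an endosomal receptor for double-stranded RNA, rose by 1.60 ± 0.19 (adjusted p = 2.97e-05) in CTRL and 1.03 ± 0.23 (adjusted p = 0.00915) in NF1KO. STING1, the adaptor of the cytosolic DNA pathway, rose by 0.83 ± 0.19 (adjusted p = 0.00419) and 1.25 ± 0.23 (adjusted p = 0.00386). IRF3, the factor downstream of the sensors, fell with BYL719 in CTRL and NF1KO, at -0.45 ± 0.10 (adjusted p = 0.00366) and -0.51 ± 0.11 (adjusted p = 0.0100). In NF1KO the calls of TLR3 and IRF3 were lost without either NF1KO DMSO library, and that of STING1 without NF1KO DMSO replicate 2.

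Of 40 further interferon-stimulated genes 33 were tested. BYL719 raised 13 and lowered 5 in CTRL and raised 8 and lowered 2 in NF1KO, with medians of 0.16 and 0.20, where 44.4% and 18.7% of all tested genes changed. In NF1KO 1 was higher and 8 were lower in DMSO, and 5 were higher and 14 lower in BYL719, with medians of -0.14 and -0.20, where 20.3% and 39.8% of all tested genes differed. GBP2, a guanylate-binding GTPase, rose with BYL719 by 2.04 ± 0.14 (adjusted p = 3.09e-07) in CTRL and 1.05 ± 0.15 (adjusted p = 9.31e-04) in NF1KO, a difference of -0.98 ± 0.20 (adjusted p = 0.00846). DDX60L rose by 1.33 ± 0.12 (adjusted p = 3.26e-06) and 0.75 ± 0.14 (adjusted p = 0.00390) and was lower in NF1KO under BYL719, at -1.12 ± 0.12 (adjusted p = 1.04e-05). SAMD9 and SAMD9L, a pair of antiviral genes, were lower in NF1KO in DMSO, at -1.25 and -2.50, and SAMD9L had -4.84 without NF1KO DMSO replicate 2 and -1.64 without NF1KO DMSO replicate 3. PLSCR1, a membrane protein that restricts virus entry, was higher in NF1KO under BYL719 by 1.00 ± 0.10 (adjusted p = 1.03e-05), and its BYL719 effect differed by 0.61 ± 0.16 (adjusted p = 0.0284). GBP2 and PLSCR1 were the 2 of the 33 whose BYL719 effect differed between the lines, against 9.39% of all tested genes. The GBP2 difference and the DDX60L rise in NF1KO were lost without NF1KO DMSO replicate 3, and the PLSCR1 difference in 7 of the 11 omissions.

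Around the MHC class I pathway, 10 other peptide processing and loading genes were tested. ERAP1, which trims peptides in the endoplasmic reticulum, was lower in NF1KO, at -0.38 ± 0.09 (adjusted p = 0.0125) in DMSO, lost without either NF1KO DMSO library, and -0.46 ± 0.08 (adjusted p = 7.23e-04) in BYL719, and rose with BYL719 by 0.64 ± 0.08 (adjusted p = 5.70e-05) in CTRL and 0.57 ± 0.09 (adjusted p = 0.00183) in NF1KO. PSME2, part of the proteasome activator PA28, fell, at -0.65 ± 0.08 (adjusted p = 7.39e-05) and -0.44 ± 0.09 (adjusted p = 0.00741), the latter lost without NF1KO DMSO replicate 3. The constitutive catalytic subunits PSMB6 and PSMB7, which PSMB9 and PSMB10 replace in the immunoproteasome, fell with BYL719. PSMB6 had -0.75 in CTRL and -0.74 in NF1KO, and PSMB7 had -0.43 and -0.45. TAP2 and these proteasome genes fell with BYL719 while ERAP1 rose. Of 13 tested MHC class II genes, 5 were lower in NF1KO in DMSO and 3 in BYL719, where 20.3% and 39.8% of all tested genes differed. CD74, the invariant chain, was lower, at -0.91 ± 0.17 (adjusted p = 0.00209) and -0.87 ± 0.14 (adjusted p = 3.99e-04). BYL719 raised 1 and lowered 2 of the 13 in CTRL, with a median of -0.31, and raised 1 in NF1KO. HLA-DRA rose with BYL719 by 1.18 ± 0.17 (adjusted p = 1.81e-04) in CTRL and 1.25 ± 0.19 (adjusted p = 0.00138) in NF1KO. HLA-DMB fell in CTRL, at -1.09 ± 0.21 (adjusted p = 0.00115), and so did HLA-DRB1, at -0.46 ± 0.17 (adjusted p = 0.0493), the latter lost in 8 of the 11 omissions.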

How the data were processed

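Messenger RNA of 11 libraries was sequenced as single reads after an Illumina TruSeq stranded kit, per the labels' protocols. The authors deposited whole-number counts per gene, not normalized. STAR 2.5.2a, SAMtools 1.7, Picard 2.9.2, edgeR and the build hg38 are named, without roles, per the submitters' processing notes, and the counting tool, strand setting and annotation are not given in the sources used here. Totals were 53283945 to 60148876 counts per library. Genes were kept by Entrez identifier, and 63 of the 27864 had no symbol. They were filtered with filterByExpr (16081 tested), scaled by TMM and fitted with edgeR 4.0.16 (R 4.3.3) as 4 group means with 7 residual degrees of freedom. Quasi-likelihood tests were 2-sided, with Benjamini-Hochberg adjustment over all tested genes and a threshold of 0.05. Errors of log2 fold changes are SE from the F statistic. Every adjusted p in the text is from this edgeR test unless another tool is named.

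The members and gene lists were chosen with earlier results of these data known. The genes named with values were all members the tests called, those near them in role, and the leading called genes of each further list. As alternatives, counts were scaled by RLE or by the upper quartile, genes were not filtered or had to reach 1 CPM in 3 libraries or more, the test was DESeq2 1.42.0 or voom of limma 3.58.1, and the fit had a replicate block. Further alternatives were fits of only the compared libraries, omission of each library and omission of both CTRL libraries numbered 1. A block within each genotype was added after seeing the data. As the pairing check, deviations of CTRL DMSO and CTRL BYL719 libraries of equal number correlated at 0.59, 0.34 and 0.32. Those of unequal number gave 0.23 and 0.18 between numbers 2 and 3, and -0.42 to -0.36 with number 1. The CTRL libraries numbered 1 thus pair, while numbers 2 and 3 are less clearly told apart. The 2 NF1KO pairs gave 0.08 and 0.15. Deviations of only 2 NF1KO DMSO libraries mirror each other, so the check cannot decide whether NF1KO numbers pair. Pairs of equal number across the lines gave -0.09 to 0.15. Those of unequal number gave -0.17 to 0.13 in BYL719, so no pairing was seen across the lines there. Scripts were tested on simulated data.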

Additional observations from a re-analysis of the deposited data

Results flagged for a closer look

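OAS3 was flagged because the effect of BYL719 differed between the lines in a test of the difference itself. The effect on the log2 scale was 0.96 higher in NF1KO than in CTRL (adjusted p = 0.00214, edgeR's quasi-likelihood test), with -0.97 in CTRL and 0.00 in NF1KO. All 3 CTRL BYL719 libraries lay below the other 8 libraries.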

How the results depend on the processing

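Counts below are of the 37 tested members past an adjusted p of 0.05, given as higher and lower calls, unless all tested genes are named. The difference for OAS3 kept its sign and call in all 20 alternatives. With the replicate block, 9 members were lower in NF1KO in DMSO, 15 lower in BYL719, and 14 rose with BYL719 in NF1KO. Over all 16081 tested genes these calls were 2133, 3784 and 2503, against 1662, 3061 and 1652 in the main fit. Pairing was clear only for number 1 in CTRL, was not seen across the lines, and could not be decided in NF1KO. With the block within each genotype, 14 rose and 2 fell in NF1KO and the effect of BYL719 was higher in 5 and lower in 3. Over all 16081 tested genes these calls were 3505, 3239, 2403 and 1942. With only the compared libraries, 4 were higher and 7 lower in NF1KO in DMSO, 5 lower in BYL719, 8 rose in CTRL, and 15 rose and 2 fell in NF1KO. Over all tested genes (15503 to 15575) these calls were 1676, 1710, 2682, 3118, 2150 and 2017. DESeq2 gave 10 rises in NF1KO, and 1803 over all 16081 tested genes. Without both CTRL libraries numbered 1, 9 were lower in DMSO, 15 lower in BYL719, 15 rose and 2 fell in NF1KO, and 1 effect was lower. Over all 15941 genes tested then, these calls were 2162, 3579, 2764, 2548 and 1018. Leaving out each library in turn gave 0 to 3 higher and 2 to 6 lower in DMSO, 3 to 7 higher and 3 to 12 lower in BYL719, 7 to 18 rises and 2 to 5 falls in CTRL, 1 to 11 rises and 0 to 1 falls in NF1KO, and 1 to 2 higher and 0 to 2 lower effects. MX1 in CTRL ranged from -0.51 (reversed, without CTRL BYL719 replicate 2) to 0.34 over these omissions. Calls over all tested genes moved as well. Rises in CTRL numbered 3072 without CTRL DMSO replicate 2 and 3823 without CTRL BYL719 replicate 1. The cause of these changes was not tested. Leaving out an NF1KO DMSO library leaves 1, assumed to vary like the other groups. The B2M difference in BYL719 also missed the threshold with RLE and with upper-quartile scaling. Depth limits IRF7, IFI44 and XAF1, which were not tested.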
